A study of Homo sapiens with 6 samples.

Results

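The enzymes that make serine and that pass one of its carbons into the folate pool were examined as a group of 8 genes: PHGDH, PSAT1, PSPH, SHMT1, SHMT2, MTHFD1, MTHFD2 and MTHFD1L. They were found by gene symbol among the 18418 genes that at least 1 row reads alone, and were read by 10 rows of 33297 in all. PSPH and MTHFD2 had 2 rows each, and the row with the higher mean was used for each gene. PHGDH was chosen by its measured values in these clones: it had the lowest difference of all 21214 rows tested with one of the hairpins. Its values are therefore a description and carry no test. The other 7 enzymes were added for their place in the pathway, with earlier results of these data known.

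Transcript levels were measured in the human triple-negative breast cancer cell line MDA-MB-231 on single-colour Affymetrix Human Gene 1.0 ST arrays. All cells carried a short hairpin RNA (shRNA): a control shRNA, TIP-1 shRNA 162 or TIP-1 shRNA 159, the latter pair directed against TIP-1, a small PDZ-domain protein whose gene is TAX1BP3. There were 2 independent clones for each of the 3 hairpins and 1 array for each clone, so a difference between groups includes what differs between single clones. Cells grew in RPMI medium with fetal bovine serum and were left overnight after reseeding before RNA was taken. Values are the authors' log2 signals, and the number of arrays limits their precision. A difference of 1 on this scale is a doubling of signal.

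Serine is made from the glycolytic intermediate 3-phosphoglycerate in a chain of 3 reactions. PHGDH oxidises it, PSAT1 adds an amino group taken from glutamate, and PSPH removes the phosphate. SHMT1 in the cytosol and SHMT2 in mitochondria then split serine into glycine and a one-carbon unit carried by folate. MTHFD2 and MTHFD1L process that unit in mitochondria and release formate, and MTHFD1 takes formate up again in the cytosol for purine and thymidylate synthesis. As background, several of these genes (PHGDH, PSAT1, MTHFD2) are known targets of ATF4, the transcription factor of the amino acid response. MDA-MB-231 is known from other work as a line with little PHGDH. In the control clones here PHGDH read 10.19 and 10.24, above the upper quartile of tested rows on every array, 9.33 at most. How this relates to the earlier work was not tested. No array of the parental line without shRNA was analysed here.

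The promoters of PHGDH, PSAT1, MTHFD2 and MTHFD1L are shown because these 4 members had the largest differences between the shRNA 162 and control clones. Each is the 250 bases before the RefSeq transcript start (GRCh38.p14), and for MTHFD1L it is the start listed first of 4. Capitals mark matches, on either strand, to 5 motifs: TGATGNAA (the composite element bound by ATF4 with C/EBP factors), CACGTG (E-box), TGACNNNGC (antioxidant response core), CCAAT (NF-Y) and GGGCGG (SP1). RefSeq promoters matched 6 of the 8 members.
PHGDH promoter, GRCh38.p14, chr1:119711684-119711933, plus strand: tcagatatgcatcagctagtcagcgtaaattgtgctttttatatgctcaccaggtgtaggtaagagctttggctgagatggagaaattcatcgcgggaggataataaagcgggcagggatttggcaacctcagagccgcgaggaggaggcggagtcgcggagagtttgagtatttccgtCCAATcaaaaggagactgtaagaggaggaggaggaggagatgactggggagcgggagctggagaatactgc
PSAT1 promoter, GRCh38.p14, chr9:78296875-78297124, plus strand: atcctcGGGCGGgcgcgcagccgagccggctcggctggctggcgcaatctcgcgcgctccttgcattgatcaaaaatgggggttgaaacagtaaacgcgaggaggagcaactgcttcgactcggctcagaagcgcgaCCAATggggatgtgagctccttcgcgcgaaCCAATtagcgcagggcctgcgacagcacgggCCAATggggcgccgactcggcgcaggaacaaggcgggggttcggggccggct
MTHFD2 promoter, GRCh38.p14, chr2:74198365-74198614, plus strand: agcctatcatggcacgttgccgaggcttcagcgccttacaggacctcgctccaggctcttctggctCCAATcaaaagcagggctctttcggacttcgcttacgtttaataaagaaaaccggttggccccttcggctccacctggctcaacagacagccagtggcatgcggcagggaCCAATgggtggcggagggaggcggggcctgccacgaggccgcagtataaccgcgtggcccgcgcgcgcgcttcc
MTHFD1L promoter, GRCh38.p14, chr6:150866236-150866485, plus strand: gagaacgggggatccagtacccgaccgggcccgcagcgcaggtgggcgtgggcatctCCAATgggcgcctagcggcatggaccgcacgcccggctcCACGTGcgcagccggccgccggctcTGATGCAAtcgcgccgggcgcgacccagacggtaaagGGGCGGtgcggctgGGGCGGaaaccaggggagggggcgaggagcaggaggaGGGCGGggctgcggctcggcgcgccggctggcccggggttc

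The PHGDH window held 1 CCAAT match, 71 bases before the start, and 0 of the other 4 motifs. The PSAT1 window held 3 CCAAT matches and 1 GGGCGG match, and the MTHFD2 window 2 CCAAT matches. The MTHFD1L window held TGATGCAA as its 1 match to the ATF4 element, 129 bases before the start, beside 1 E-box, 1 CCAAT and 3 GGGCGG matches. That element was in 2 of the 4 MTHFD1L windows and in no window of PHGDH, PSAT1, SHMT1, MTHFD1 or MTHFD2. In those 2 windows it lay 129 and 90 bases before the start, with the E-box at 154 and 115. The spacing is the same, so these windows appear to overlap and to hold 1 site. Among all 35116 promoter windows of this length, 3.14% held TGATGNAA, 6.34% CACGTG, 10.9% TGACNNNGC, 32.0% CCAAT and 42.6% GGGCGG. A match says only that these letters are present, and their absence here says nothing of sites elsewhere. PHGDH had 11 CpG dinucleotides in its window (51.2% G and C), against 30 in PSAT1 (65.6%), 21 in MTHFD2 (62.4%) and 33 in MTHFD1L (76.0%).

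The targeted gene was checked first. The TAX1BP3 row read 11.65 and 11.56 in the control clones, 9.85 and 10.01 with shRNA 162, and 10.40 and 10.40 with shRNA 159 (log2). Both hairpins had lowered it, with 31.3% of the control signal left by shRNA 162 (limma adjusted p = 4.4e-05) and 43.4% by shRNA 159 (limma adjusted p = 0.00034). This row is shared with the readthrough transcript P2RX5-TAX1BP3. Clones of a group correlated at 0.996 to 0.997 over the tested rows, where the array medians lay between 7.86 and 7.91. The cell line's markers VIM, CD44, AXL, CAV1 and KRT18 stood at 12.24 to 13.36 in every group. ESR1, PGR and CDH1 stood at 5.85 to 6.40, below the lower quartiles of the arrays, and ERBB2 and GATA3 at 7.82 to 8.11. Of 3 leukocyte, 4 fibroblast and 3 endothelial markers 0 passed in any of the 3 comparisons (limma, with 0, 1 and 0 at an unadjusted p under 0.05 for shRNA 162 minus control). Of the 5 luminal epithelial markers, KRT8 fell by 0.44 with shRNA 162 (limma adjusted p = 0.027) and EPCAM rose by 0.94 with shRNA 159 (limma adjusted p = 0.00086). The part of either in the results below was not tested.

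PHGDH, the enzyme that commits 3-phosphoglycerate to serine, had 8.35% of its control signal in the shRNA 162 clones and 78.6% in the shRNA 159 clones. It read 10.19 and 10.24 in the control clones, 9.88 and 9.86 with shRNA 159, and 6.59 and 6.68 with shRNA 162. The order of the groups was thus control, shRNA 159, shRNA 162, with a spread of 0.02 to 0.06 (SD, n = 2) within each. No pair of groups overlapped. Clones did not overlap in 56.6% of all rows for shRNA 162 minus control, 42.4% for shRNA 159 minus control and 51.9% between the hairpins. Against control, PHGDH differed by -3.58 with shRNA 162 and by -0.35 with shRNA 159. The shRNA 159 clones had 9.41 times the signal of the shRNA 162 clones. By size the shRNA 162 difference ranked 2 among 21214 rows and was the lowest of all, whereas the shRNA 159 difference ranked 995.

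Both shRNA 162 values lay below the lower quartile of their own arrays, 6.77 and 6.78. Detection calls were not used here, so how far 6.59 and 6.68 stand above background is unknown and -3.58 is a difference of array signal. In bulk RNA, fewer cells with PHGDH and less PHGDH RNA per cell cannot be told apart. A further row carries the symbols MZT2B and PHGDH together. It read 12.06 and 11.95 in the control clones, 11.69 and 11.74 with shRNA 162, and 11.81 and 12.04 with shRNA 159. The shRNA 162 clones were lowest on this row, by 0.29 below control, but the difference did not pass (limma adjusted p = 0.10). The row cannot be assigned to either gene.

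**Figure D1:**
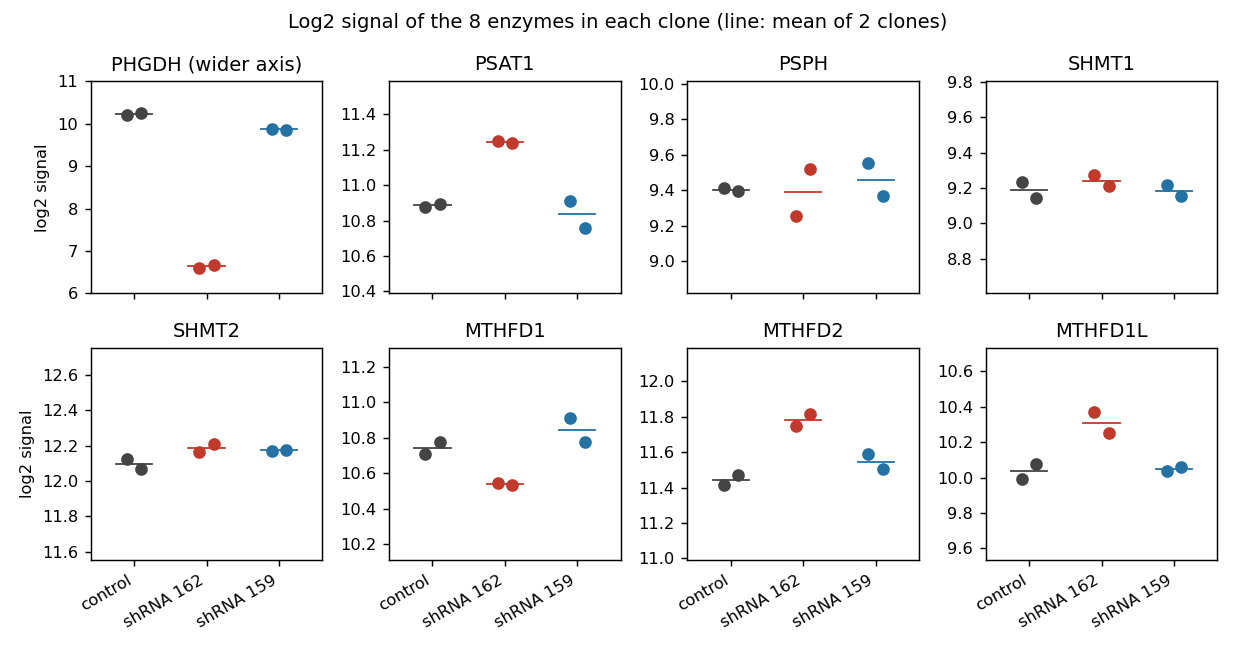
Log2 signal of each of the 8 enzymes in the 6 clones, 1 point per clone and a line at the mean of 2 clones; the axis of PHGDH spans 5 log2 units and each other axis 1.2. PHGDH drops to 6.59 and 6.68 in the shRNA 162 clones, while PSAT1, MTHFD2 and MTHFD1L are highest there and MTHFD1 lowest.

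The measured genes nearest to PHGDH in order along chromosome 1 lay near control. Order alone was used, and their distances from PHGDH are not given here. Of the 5 nearest protein-coding genes with a row on each side (WARS2, HAO2, HSD3B2, HSD3B1 and ZNF697 before it, REG4, ADAM30, NOTCH2, SEC22B and CD160 after it), 0 of 10 passed for shRNA 162 minus control (limma, 0 at an unadjusted p under 0.05). Their differences ran from -0.07 to 0.16, with a median of 0.001. With shRNA 159 they ran from -0.27 to -0.02, all below control, and 0 of 10 passed (limma, 2 at an unadjusted p under 0.05). Between the hairpins WARS2, a mitochondrial tryptophanyl-tRNA synthetase, was lower with shRNA 159 by 0.42 (limma adjusted p = 0.017). In the control clones HAO2, HSD3B2, HSD3B1, REG4, ADAM30 and CD160 had means of only 5.50 to 6.66, below the lower quartiles of the arrays. These rows had little room to fall, so they say little of a loss there. WARS2, ZNF697, NOTCH2 and SEC22B had control means of 8.67 to 11.29 and differed by -0.07 to 0.16 with shRNA 162. NOTCH2, a receptor read well above the lower quartile, stood at 10.17 and 10.16 in the control clones and 10.17 and 10.23 with shRNA 162.

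**Figure D2:**
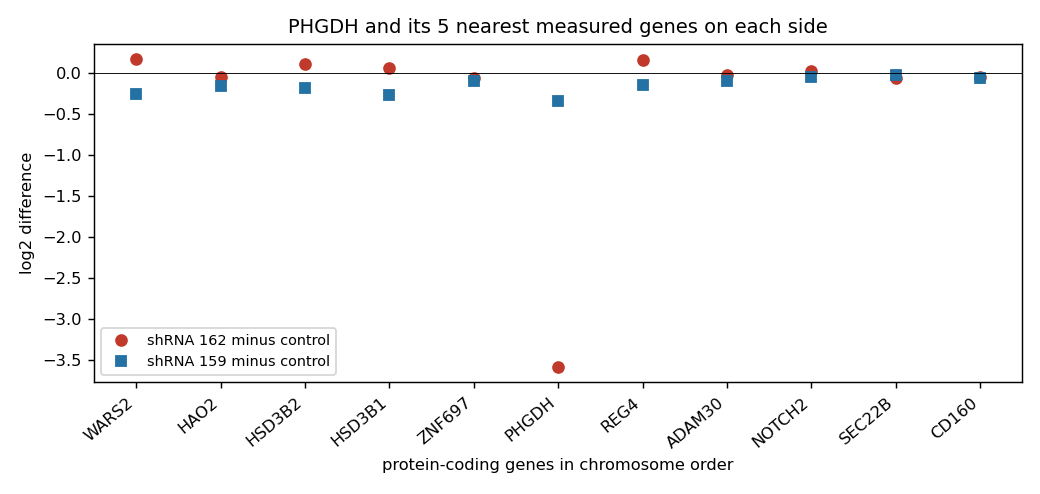
Log2 difference from control of PHGDH and the 5 nearest measured protein-coding genes on each side, in chromosome order and not to distance; circles are shRNA 162 and squares shRNA 159. The 10 neighbours lie between -0.27 and 0.16, and PHGDH with shRNA 162 lies at -3.58.

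The pattern of PHGDH over the 3 groups was most like that of ACTG2, SERINC2, CYP24A1, LCP1, SMARCA1 and CDA, in this order, by the distance between the pairs of hairpin differences. ACTG2, the smooth muscle gamma actin, read 11.93 and 11.85 in the control clones, 9.06 and 8.86 with shRNA 162 and 12.01 and 11.98 with shRNA 159, at a distance of 0.79 log2 units. SERINC2 differed from control by -2.21 with shRNA 162 and -0.08 with shRNA 159, at a distance of 1.40. CYP24A1, the enzyme that inactivates vitamin D, differed by -2.16 and -0.23, at a distance of 1.43. LCP1, SMARCA1 and CDA differed by -1.31 to -0.95 with shRNA 159 as well, at distances of 1.57 to 1.87. Over the 6 arrays Pearson's r with PHGDH was 0.991 to 0.998 for the first 3 genes and 0.856 to 0.921 for the others, which describes 3 groups of 2 and is no test. The other 7 enzymes differed by -0.20 to 0.36 with shRNA 162, too little to be among these 6 genes, so their absence adds nothing.

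With shRNA 162, 2 of the other 7 enzymes rose, PSAT1 and MTHFD2, and 0 fell. Among all rows tested 5.88% rose and 3.64% fell, 9.52% together (5.08%, 5.06% and 10.1% after quantile normalization). The median difference of the 7 was 0.09, against 0.02 over all rows. In 5 of 7 the clones of the groups did not overlap, as they did not in 56.6% of all rows. At an unadjusted p under 0.05 there were 4 of 7 (PSAT1, MTHFD2, MTHFD1L and MTHFD1), against 25.1% of all rows.

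PSAT1, the aminotransferase that acts directly after PHGDH, read 10.87 and 10.90 in the control clones and 11.25 and 11.24 with shRNA 162. Both shRNA 162 clones lay above the other 4 arrays. It rose by 0.36 (SE 0.08, 1.28-fold, limma adjusted p = 0.030). With shRNA 159 it read 10.91 and 10.76, overlapping the control clones, with a difference of -0.05 (95% interval -0.24 to 0.13, limma adjusted p = 0.83). The hairpins differed by -0.41 for shRNA 159 minus shRNA 162 (SE 0.08, limma adjusted p = 0.019). RefSeq names 4 pseudogenes after PSAT1, and reads of near-identical copies by the array cannot be separated.

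PSPH, the phosphatase of the last step, passed in no comparison. Its brighter row read 9.41 and 9.39 in the control clones, 9.25 and 9.52 with shRNA 162 and 9.55 and 9.37 with shRNA 159. For each hairpin, 1 clone lay above both control clones and the other below both. The 95% interval of the shRNA 162 difference was -0.26 to 0.23. The dimmer PSPH row differed by 0.19 with shRNA 162 (limma adjusted p = 0.51), with 9.18 in 1 clone and 9.74 in the other, so the rows differed in sign. RefSeq names 1 pseudogene after PSPH, and which copy each row reads was not determined.

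The serine hydroxymethyltransferases passed in no comparison. SHMT1 read 9.23 and 9.14 in the control clones, 9.27 and 9.21 with shRNA 162 and 9.22 and 9.15 with shRNA 159, so all 3 groups overlapped. SHMT2 read 12.12 and 12.07, then 12.17 and 12.21, then 12.17 and 12.18. Its shRNA clones all lay above the control clones, by 0.09 with shRNA 162 (95% interval -0.08 to 0.26) and 0.08 with shRNA 159 (-0.09 to 0.24), and neither difference passed (limma adjusted p = 0.50 and 0.70).

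MTHFD2, the mitochondrial dehydrogenase and cyclohydrolase, read 11.41 and 11.47 in the control clones and 11.75 and 11.81 with shRNA 162. It rose by 0.34 (SE 0.08, 1.26-fold, limma adjusted p = 0.031). With shRNA 159 it read 11.59 and 11.51, between the groups, with a difference of 0.10 from control (limma adjusted p = 0.60). The difference between the hairpins, -0.23, did not pass (limma adjusted p = 0.11). The dimmer MTHFD2 row differed by 0.27 with shRNA 162 and did not pass (limma adjusted p = 0.079). RefSeq names 7 pseudogenes after MTHFD2, and which copies each row reads was not determined.

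MTHFD1L, the mitochondrial enzyme that releases formate, read 9.99 and 10.08 in the control clones, 10.37 and 10.25 with shRNA 162 and 10.04 and 10.06 with shRNA 159. Its shRNA 162 clones lay above the other 4 arrays, by 0.27 over control (95% interval 0.09 to 0.46), but the difference did not pass (limma adjusted p = 0.069). MTHFD1, the cytosolic counterpart with 3 activities, lay the other way. It read 10.71 and 10.78 in the control clones, 10.55 and 10.53 with shRNA 162 and 10.91 and 10.77 with shRNA 159. The shRNA 162 clones were the lowest, by 0.20 (95% interval -0.39 to -0.02, limma adjusted p = 0.16), and the hairpins differed by 0.30 (limma adjusted p = 0.055). The 10 nearest genes of MTHFD1 had a median difference of -0.21 with shRNA 162, about that of MTHFD1 itself, and 1 of 10 passed. For PSAT1, MTHFD2 and MTHFD1L the same median was -0.03, -0.009 and -0.12. Of each 10, 0, 1 and 1 passed, against 9.52% of all rows. The signal levels of these neighbours are not given here, and the part of gene position was not tested.

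**Figure D3:**
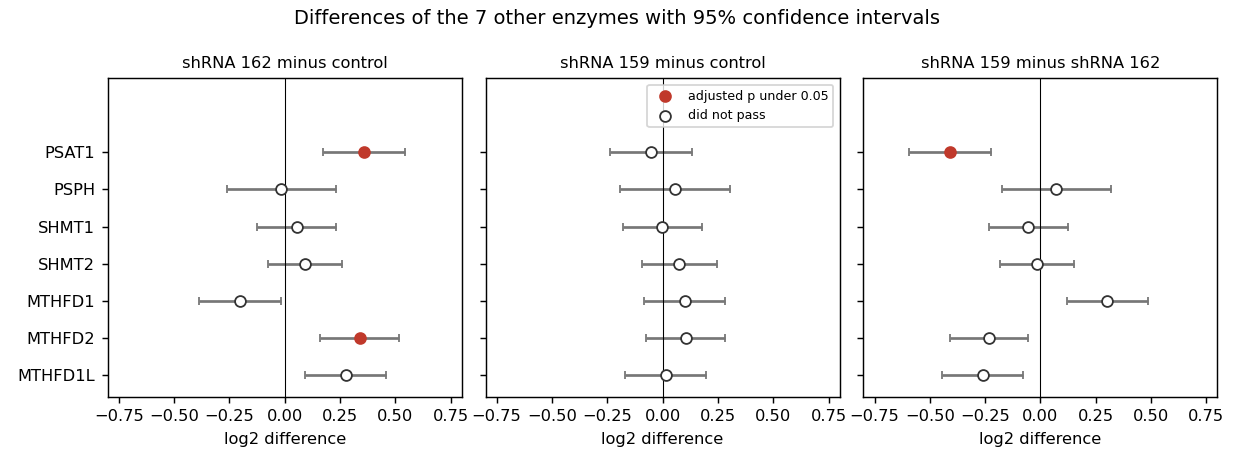
Log2 difference of the 7 enzymes other than PHGDH in each comparison, with limma's 95% confidence interval; filled points passed at an adjusted p under 0.05. PSAT1 and MTHFD2 passed for shRNA 162 minus control, PSAT1 alone for shRNA 159 minus shRNA 162, and 0 of 7 for shRNA 159 minus control.

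With shRNA 159, 0 of the 7 enzymes passed against control (limma, 0 at an unadjusted p under 0.05, against 14.1% of all rows), against 2.53% of all rows (1.69% higher and 0.839% lower; 2.66%, 1.68% and 0.98% after quantile normalization). Their differences ran from -0.05 to 0.10, and 2 of 7 did not overlap control, against 42.4% of all rows. Between the hairpins 1 of 7 passed, PSAT1, against 8.65% of all rows, 4.02% higher and 4.64% lower (9.08%, 5.05% and 4.03% after quantile normalization). At an unadjusted p under 0.05 there were 4 of 7, against 24.2% of all rows, and 4 of 7 did not overlap, against 51.9%. The calls rest on few clones. Without either control clone or either shRNA 162 clone, 0 of 7 passed for shRNA 162 minus control, with PSAT1 at 0.35 to 0.37 and MTHFD2 at 0.30 to 0.37, and 0 passed when rows without a gene symbol were tested too. The PSAT1 difference between the hairpins was lost without either shRNA 162 clone or without shRNA 159 clone 2 (limma adjusted p = 0.069 to 0.11).

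The pathways around these enzymes were described with 10 lists of 169 genes, 153 of them measured by a row that reads no other gene. With shRNA 162, 17 of the 153 rose and 6 fell, 15.0% against 9.52% of all rows. With shRNA 159, 2 rose and 2 fell, 2.61% against 2.53%. Between the hairpins 6 were higher and 15 lower with shRNA 159, 13.7% against 8.65%. Of the 23 genes called with shRNA 162, 5 (ASNS, GSR, MYC, HIF1A and TP73) passed without each array in turn. Leaving out control clone 1 gave 5 calls, control clone 2 gave 7, shRNA 162 clone 1 gave 7 and shRNA 162 clone 2 gave 6. Of the 4 calls with shRNA 159, leaving out control clone 1, control clone 2 or shRNA 159 clone 1 gave 2, 1 and 2 calls.

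**Figure D4:**
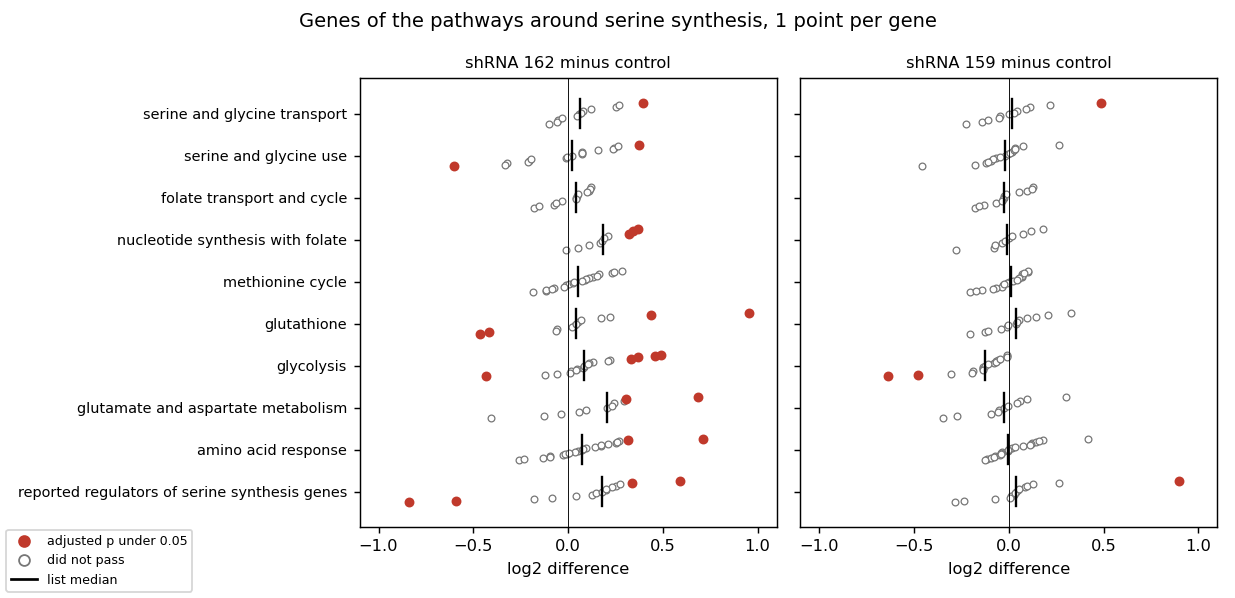
Log2 difference from control of 153 genes in 10 lists, 1 point per gene and list, with shRNA 162 on the left and shRNA 159 on the right; filled points passed at an adjusted p under 0.05 and the bar is the list's median. Folate cycle and methionine cycle genes lie between -0.20 and 0.28 in both panels, and the largest increase is GSR with shRNA 162 at 0.96.

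Serine and glycine transporters came first. Of 12 transporters 1 passed with shRNA 162, 8.33% against 9.52% of all rows, and the same 1 with shRNA 159, 8.33% against 2.53%. The mitochondrial sideroflexin SFXN2 rose by 0.40 with shRNA 162 (limma adjusted p = 0.015) and by 0.49 with shRNA 159 (limma adjusted p = 0.012). SFXN2 read 8.74 and 8.80 in the control clones and 9.15 to 9.27 in the 4 shRNA clones. The neutral amino acid carriers SLC1A4 and SLC1A5, which take up serine, differed by 0.06 and 0.12 with shRNA 162, and SFXN1, the mitochondrial serine transporter, by 0.05. None of these 3 passed.

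Among 17 genes that use serine or glycine, 1 rose and 1 fell with shRNA 162, 11.8% against 9.52% of all rows. CTH, which makes cysteine from cystathionine, rose by 0.37 (limma adjusted p = 0.038) from 7.41 and 7.52 to 7.77 and 7.92. SPTLC2, a subunit of the enzyme that joins serine to palmitoyl-CoA, fell by 0.60 (limma adjusted p = 0.012) from 9.18 and 8.91 to 8.48 and 8.42. Its 10 nearest genes had a median of -0.23. GLDC of the glycine cleavage system differed by -0.01. With shRNA 159, 0 of the 17 passed (limma, 2 at an unadjusted p under 0.05), against 2.53% of all rows.

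The folate and methionine cycles held no call, against 9.52% of all rows with shRNA 162 and 2.53% with shRNA 159. Of 13 folate transport and cycle genes and 20 methionine cycle genes, 0 passed with either hairpin (limma, with 0 and 3 at an unadjusted p under 0.05 for shRNA 162 and 0 and 1 for shRNA 159). SLC25A32, the mitochondrial folate carrier, differed by 0.12 and MTHFD2L, the paralogue of MTHFD2, by 0.04 with shRNA 162. MAT2A and AHCY, which make and clear the methyl donor cycle's intermediates, differed by 0.09 and 0.24 and did not pass. Of 10 genes that make nucleotides with folate carbon or beside it, 3 passed with shRNA 162, 30% against 9.52% of all rows. All 3 rose: DUT (0.37, limma adjusted p = 0.017), PRPS1 (0.32, 0.029) and PFAS (0.34, 0.031). TYMS, thymidylate synthase, differed by 0.17 and did not pass.

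Of 11 glutamate and aspartate genes 2 rose and 0 fell with shRNA 162, 18.2% against 9.52% of all rows. ASNS, which makes asparagine, read 8.13 and 8.14 in the control clones, 8.77 and 8.87 with shRNA 162 and 8.50 and 8.37 with shRNA 159. It rose by 0.69 with shRNA 162 (limma adjusted p = 0.0025), and its shRNA 159 difference of 0.30 did not pass (limma adjusted p = 0.12). ASS1, of arginine synthesis, rose by 0.31 (limma adjusted p = 0.038). In the amino acid response list of 23 genes 2 rose and 0 fell with shRNA 162, 8.7% against 9.52% of all rows. This share depends on which genes were placed in the list. PHGDH, PSAT1 and MTHFD2, named above as ATF4 targets, are not in it. DDIT4, an inhibitor of mTORC1 signalling, rose by 0.71 (limma adjusted p = 0.013) and SLC7A5, a leucine carrier, by 0.32 (limma adjusted p = 0.034). ATF4 itself differed by 0.05, and DDIT3, TRIB3 and SESN2 of the same list by 0.21, 0.17 and -0.03. None of these 4 passed. For ASNS, DDIT4 and SLC7A5 the 10 nearest genes had medians of 0.08, 0.02 and 0.13.

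Of 13 glutathione genes 2 rose and 2 fell with shRNA 162, 30.8% against 9.52% of all rows. GSR, glutathione reductase, rose by 0.96 (limma adjusted p = 0.00043). Its 10 nearest genes had a median of 0.67 with 7 of 10 passing, also against 9.52% of all rows. CHAC1, which degrades glutathione, rose by 0.44 (limma adjusted p = 0.017), while the cystine carrier SLC7A11 fell by 0.46 (limma adjusted p = 0.024) and the peroxidase GPX1 fell by 0.42 (limma adjusted p = 0.016). The medians around these 3 lay between 0.002 and 0.07.

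Glycolysis supplies the substrate of PHGDH. With shRNA 162, 4 of 19 genes rose and 1 fell, 26.3% against 9.52% of all rows. The glucose carrier SLC2A3 rose by 0.49, LDHB by 0.46, PFKM by 0.37 and ENO2 by 0.33 (limma adjusted p = 0.0077 to 0.036). The aldolase ALDOC fell by 0.43 (limma adjusted p = 0.011). The 10 nearest genes of LDHB, ENO2 and SLC2A3 had medians of 0.36, 0.34 and 0.24. Of each 10, 6, 5 and 2 passed, against 9.52% of all rows. Those next to PFKM had a median of -0.02, and 0 of 10 passed. The part of gene position in these rises was not tested. With shRNA 159, ALDOC fell by 0.64 (limma adjusted p = 0.0041) and the hexokinase HK2 fell by 0.48 (limma adjusted p = 0.016). These were 10.5% of the 19, against 2.53% of all rows. The median of the 19 with shRNA 159 was -0.13, against -0.01 over all rows. GAPDH differed by 0.08 with shRNA 162 and -0.01 with shRNA 159.

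Among 15 genes reported to control serine synthesis genes, 2 rose and 2 fell with shRNA 162, 26.7% against 9.52% of all rows. MYC rose by 0.59 (limma adjusted p = 0.0043), beside neighbours with a median of 0.32, and KEAP1, which holds NRF2 in check, rose by 0.34 (limma adjusted p = 0.042). HIF1A fell by 0.84 (limma adjusted p = 0.0012), beside neighbours with a median of -0.19, and TP73 fell by 0.59 (limma adjusted p = 0.0033), beside neighbours at 0.02. With shRNA 159, 1 of the 15 passed, 6.67% against 2.53% of all rows. This was the histone demethylase KDM4C, which rose by 0.89 (limma adjusted p = 0.0021), and 4 of its 10 nearest genes passed there too. NFE2L2, which encodes NRF2, differed by 0.15 and 0.04.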

How the data were processed

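Per the series text, the authors processed the arrays with the Affymetrix Exon Array Computational Tool and deposited 1 normalized log2 value per row and array. Settings for background correction and normalization: not given in the sources used here. A log2 scale was read from the range, 2.29 to 14.65. In the array's probe table, 1 symbol was given for 19461 rows, several for 1753 and none for 12083. The 21214 rows with a symbol entered 1 limma model of 3 groups (limma 3.58.1, R 4.3.3, 3 residual and 5.31 prior degrees of freedom), two-sided, with Benjamini-Hochberg adjustment over all of them. A row passed at an adjusted p under 0.05. There were no technical replicates, and p-values measure the spread between these clones. Intervals are limma's 95% intervals without adjustment. A gene with several rows entered by the row with the highest mean.

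The members and lists were chosen with earlier results of these data known. Named genes were the members, TAX1BP3, list genes that passed (up to 8 per list), the 5 nearest genes on each side of PHGDH and the 6 genes nearest to it in pattern. Other list genes, and the medians over the 10 nearest genes, were added after their values were seen. Of 169 list genes 16 had no row of their own and were not analysed here. The fit was tested on simulated data. Motifs were searched in RefSeq promoter sequences. Figures were drawn with matplotlib 3.10.9.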

Additional observations from a re-analysis of the deposited data

Results flagged for a closer look

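For 25 genes named in the text the effects of the hairpins against control differed by the test of the difference itself, shRNA 159 minus shRNA 162 (limma adjusted p under 0.05). Among the enzymes this was PSAT1, at -0.41. Lower with shRNA 159 than with shRNA 162 among the glycolysis genes were SLC2A3 (-0.80), HK2 (-0.61), LDHB (-0.47), PFKM (-0.44), TPI1 (-0.40) and ENO2 (-0.38). HK2 had fallen with shRNA 159 and the others, apart from TPI1, had risen with shRNA 162. In this comparison the 10 nearest genes of LDHB, ENO2, TPI1 and SLC2A3 had medians of -0.38, -0.38, -0.35 and -0.24. Those of HK2 and PFKM had medians of -0.05 and -0.01. Also lower with shRNA 159 were GSR (-0.86), DDIT4 (-0.79), ASNS (-0.39), SLC7A5 (-0.36), PRPS1 (-0.34), MYC (-0.33), the glycine carrier SLC6A9 (-0.32), ASS1 (-0.31) and DUT (-0.29). The 10 nearest genes of GSR and MYC had medians of -0.66 and -0.41 between the hairpins. For the others just named these medians ran from -0.11 to 0.02. The part of gene position in these differences was not tested. Higher with shRNA 159 were KDM4C (0.64), HIF1A (0.60), SLC7A11 (0.46), the tryptophanyl-tRNA synthetase WARS1 (0.39), TP73 (0.31) and the kinase PRKCZ (0.31). The 10 nearest genes of KDM4C and of HIF1A had a median of 0.17 between the hairpins. For SLC7A11, WARS1, TP73 and PRKCZ these medians ran from -0.07 to 0.09, and the part of gene position was not tested here either. Outside the enzymes and pathway lists, the targeted gene TAX1BP3 (0.47) and EPCAM (0.79) were higher with shRNA 159, and WARS2, a neighbour of PHGDH, was lower (-0.42). The pathway lists gave 21 of the 25 genes, 13.7% of the 153 measured, against 8.65% of all rows tested. Of these 21, 5 (GSR, HIF1A, HK2, KDM4C and SLC2A3) passed this comparison without each array in turn. The 21 calls became 12 without either control clone, 7 without either shRNA 162 clone, and 11 or 9 without shRNA 159 clone 1 or 2. Groups of 2 clones were too small to look for single outlying samples.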

How the results depend on the processing

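PHGDH, chosen for its difference with shRNA 162, read -3.63 there after quantile normalization and -3.59 on centred arrays; most other settings cannot move this value. For the 7 other enzymes, the count that passed for shRNA 162 minus control (2) was 3 among the brighter rows, 4 with a variance trend, 0 when all rows were tested and 0 to 2 with 1 array left out. For shRNA 159 minus shRNA 162 (1) it was 4 among the brighter rows, 4 with a variance trend, 2 after quantile normalization, 2 with arrays centred on the median, 0 with all rows and 0 to 1 with 1 array left out. For shRNA 159 minus control it was 0 under every alternative. The 153 list genes gave 23, 4 and 21 calls for shRNA 162 minus control, shRNA 159 minus control and shRNA 159 minus shRNA 162. These counts were 44, 11 and 41 among the brighter rows (116 genes), 6, 2 and 6 with all rows, and 48, 16 and 49 with a variance trend. With only the 4 arrays compared the last was 12. With 1 array left out they ran from 5 to 25, 1 to 4 and 7 to 12; a lone clone is then assumed to vary like the other groups. The causes were not tested. Testing all rows adds 12083 rows to limma's fit of the spread as well as to the adjustment.

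Small differences changed sign. SHMT1 was -0.0025 with shRNA 162 after quantile normalization and 0.023 with shRNA 159 on centred arrays, MTHFD1L was -0.031 with shRNA 159 after quantile normalization, and SHMT2 was 0.019 between the hairpins on centred arrays. With 1 array left out, PSPH ran from -0.15 to 0.12 with shRNA 162, from -0.038 to 0.15 with shRNA 159 and from -0.062 to 0.21 between the hairpins. With shRNA 159, PSAT1 ran from -0.13 to 0.026, SHMT1 from -0.048 to 0.043 and MTHFD1L from -0.028 to 0.057. SHMT2 ran from -0.036 to 0.0058 between the hairpins. With the replicate block, 2, 0 and 1 of the 7 enzymes and 23, 6 and 22 list genes passed in the 3 comparisons. Clones with the same number share only that number: their deviations correlated at -0.05, 0.26 and -0.03 between groups.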

Other observations

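Another 4 rows carry MTHFD1L together with 3 uncharacterised loci, 2 of them identical, and were given to no gene. They differed from control by 0.07 to 0.08 with shRNA 162 and by 0.11 to 0.13 with shRNA 159. None passed in the comparisons with control (limma adjusted p = 0.55 to 0.65).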
